A study of Mus musculus with 2 samples.

Results

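The signal transducers and activators of transcription (STATs) and the Janus kinases that phosphorylate them were read in whole mouse liver on 2 single-colour arrays. The 9 genes were chosen by symbol, as probes that the platform annotation assigns to Jak1, Jak2, Tyk2, Stat2, Stat3, Stat4, Stat5a, Stat5b or Stat6. They had 10 of 23473 gene probes and were 9 of 19318 named genes, Stat3 having 2 probes. All 9 genes were above background on both arrays, as were 14143 genes in all. The liver named CKO carried Twist2-Cre together with floxed alleles of A20 (Twist2-Cre/A20fl/fl), and the control liver carried Twist2-Cre without them, so both carried the Cre. The mice of both genotypes were 24 weeks old. Twist2-Cre is known to act in mesenchymal lineages, which limits the cells that lose A20, and A20 is the protein of Tnfaip3 that restrains NF-kB signalling. There was 1 array per genotype, and how many animals gave each RNA is not stated in the sources used here.

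A cytokine receptor without kinase activity of its own holds Janus kinases on its cytoplasmic tail, and a bound ligand brings them together. The kinases phosphorylate the receptor and then the STATs that dock there, and paired STATs enter the nucleus and bind DNA at palindromic sites. In liver this route carries the acute phase response to IL-6 through STAT3, growth hormone signals through STAT5, and interferon signals through STAT2 and its relatives. Activity of these proteins is set by phosphorylation, which a transcript array does not read.

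Transcripts of the kinases and STATs were at similar levels in the CKO and the control liver, with Stat3, Jak2 and Tyk2 somewhat higher in the CKO liver. On the normalized log2 scale, 7 of the 9 genes were higher and 2, Stat2 and Stat5a, were lower. Over all 14143 genes, 42.2% had a ratio above 0. The 9 ratios, log2 of CKO over control, ran between -0.07 and 0.34 with a median of 0.08, beside a median of -0.02 for all genes. None of the 9 reached a 2-fold difference, which 0.636% of all genes reached on the higher side and 0.0778% on the lower side. With a single array for each genotype, no comparison could be tested or checked in a replicate. The spread between different probes of the same gene, 0.13 on the log2 scale (SD, 716 genes), is the measure of size used here. Only the ratios of Stat3, Jak2 and Tyk2 exceeded it. It comes from probes on the same 2 arrays and does not measure variation between livers. All 9 ratios lay inside the middle 95% of genes of similar level, taken as 1 of 20 equal classes by level. The SD of ratios within a class gave another set. Jak2 (0.27, class SD 0.16) and Stat4 (0.13, class SD 0.09) exceeded it. Stat3 (0.34, class SD 0.40) and Tyk2 (0.25, class SD 0.27) did not. Whole liver holds many cell types, and fewer cells of a type cannot be told apart from less RNA per cell.

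The DNA before the transcription starts is shown for Stat3 and Jak2, which had the largest ratios on the normalized scale, and for Stat2 and Stat4, which hold matches to a motif of interferon-responsive promoters. Each run is the 250 bases before a start in RefSeq (GRCm38.p6), in lower case on the gene's strand, 5′ to 3′, with motif matches in capitals.
Stat3, chr11:100939541-100939790, minus strand: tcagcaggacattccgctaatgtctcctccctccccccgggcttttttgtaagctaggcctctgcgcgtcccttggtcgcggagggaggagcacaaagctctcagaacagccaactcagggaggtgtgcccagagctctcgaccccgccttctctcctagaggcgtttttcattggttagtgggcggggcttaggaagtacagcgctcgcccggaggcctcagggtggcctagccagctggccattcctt
Jak2, chr19:29251553-29251802, plus strand: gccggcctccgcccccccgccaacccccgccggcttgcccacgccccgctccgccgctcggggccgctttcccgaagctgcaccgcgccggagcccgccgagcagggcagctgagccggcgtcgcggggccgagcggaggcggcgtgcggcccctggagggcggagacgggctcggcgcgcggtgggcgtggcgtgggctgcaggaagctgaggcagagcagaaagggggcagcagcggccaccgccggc
Stat2, chr10:128270248-128270497, plus strand: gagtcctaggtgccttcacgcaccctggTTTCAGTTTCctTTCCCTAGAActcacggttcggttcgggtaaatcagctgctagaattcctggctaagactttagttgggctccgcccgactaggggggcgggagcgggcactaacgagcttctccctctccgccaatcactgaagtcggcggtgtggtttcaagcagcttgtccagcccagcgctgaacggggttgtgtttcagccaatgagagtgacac
Stat4, chr1:52007990-52008239, plus strand: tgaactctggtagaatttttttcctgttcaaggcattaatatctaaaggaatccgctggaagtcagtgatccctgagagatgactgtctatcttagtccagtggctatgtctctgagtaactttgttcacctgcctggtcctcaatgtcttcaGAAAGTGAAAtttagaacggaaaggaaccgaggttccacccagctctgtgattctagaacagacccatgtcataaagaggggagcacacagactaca
The motifs searched were the STAT palindrome TTCNNNGAA, its form with a 4-base gap TTCNNNNGAA, which STAT6 favours, and the core GAAANNGAAA of the interferon-stimulated response element, which STAT2 complexes bind. Both strands were searched, so the core also appears as TTTCNNTTTC. Of 32851 windows of this length before RefSeq starts, 7.02% held the palindrome, 5.85% the form with the 4-base gap and 2.98% the core. The 9 genes had 12 windows, since Stat4, Stat5a and Stat5b have 2 starts each in the table, and 10 windows held no match. The capitals in the Stat2 window are a core match, TTTCAGTTTC, lying 222 to 213 bases before the start, and a match to the form with the 4-base gap, TTCCCTAGAA, lying 210 to 201 bases before it; they do not overlap. In the Stat4 window, before the later of its starts, the core match GAAAGTGAAA lay 97 to 88 bases before the start. These letters are a description of the windows and not evidence of binding.

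Jak1, the kinase shared by interferon, IL-6 family and common gamma chain receptors, was near equal in both livers. Its deposited intensity was 571 in the CKO liver and 563 in the control liver. The normalized log2 level was 9.55 in the CKO and 9.47 in the control liver, a ratio of 0.08. Jak1 therefore differed by less than the spread between probes of 1 gene. Against the local background column of the scanner files, an alternative described below, Jak1 turned to -1.04, the single value among the 9 genes past 2-fold in any setting.

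Jak2, the kinase of the growth hormone, erythropoietin and interferon-gamma receptors, was dim and, on the normalized scale, had a ratio next to that of Stat3. Its deposited intensity was 37 in the CKO liver and 23 in the control liver, a quotient of 1.61. On the normalized scale it was at 6.61 in the CKO and 6.34 in the control liver, a ratio of 0.27. That was higher than 94.9% of the 708 genes of similar level, whose middle 95% ran between -0.21 and 0.40. The offset in the normalized scale draws ratios of dim genes towards 0, and with plain subtraction of the blank spots' mean the ratio of Jak2 was 0.68. The scatter of blank spots alone gives that value an error of 0.08.

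Tyk2, the kinase that serves type I interferon, IL-10 and IL-12 receptors, was moderately higher in the CKO liver. Its deposited intensity was 167 in the CKO liver and 137 in the control liver. The normalized level was 8.0 in the CKO and 7.75 in the control liver, a ratio of 0.25 that was higher than 89.1% of 707 genes of similar level. With plain subtraction the ratio was 0.32, and against the local background column it had the opposite sign, -0.16. Thus all 3 kinases were higher on the normalized scale, with a median ratio of 0.25, and 1 of the 3 was higher against the local background column.

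**Figure D1:**
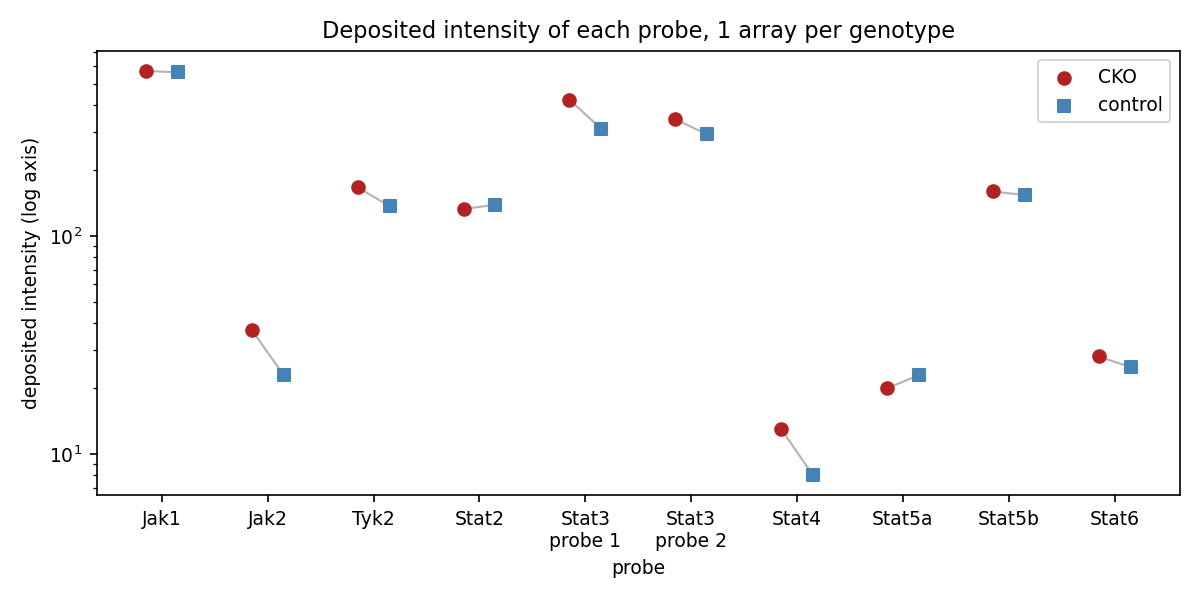
Deposited intensity (log axis) of each of the 10 probes on the CKO array (circles) and the control array (squares), with a line joining the 2 values of a probe. The 2 Stat3 probes, Jak2, Tyk2 and Stat4 are visibly higher in the CKO liver; heights of different probes are not comparable.

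Stat3, the factor through which IL-6 induces acute phase genes in hepatocytes, had the largest ratio of the 9 genes on the normalized scale; with plain subtraction and in the deposited values Stat4 and Jak2 were above it. Its first probe had deposited intensities of 421 in the CKO liver and 310 in the control liver. Its second probe had 343 in the CKO liver and 292 in the control liver. Both probes were thus higher in the CKO liver, with normalized ratios of 0.44 for the first and 0.24 for the second. They differed by 0.20, close to the 0.19 that the spread between probes gives for a difference (SD). Their mean placed Stat3 at 9.01 in the CKO and 8.67 in the control liver, a ratio of 0.34 or 1.27-fold. It ranked 562 of 14143 genes, above 96.0% of them, but within its level class, where the middle 95% ran between -0.45 and 0.88. With plain subtraction the ratio was 0.38 and in the deposited values 0.34. Against the local background column it had the opposite sign, -0.22, with 0.04 for the first probe and -0.49 for the second.

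Stat2, the partner of IRF9 in the complex that answers type I interferon, was near equal. Its deposited intensity was 133 in the CKO liver and 139 in the control liver. The normalized level was 7.73 in the CKO and 7.77 in the control liver, a ratio of -0.04. The spots before any correction read 231 in the CKO and 229 in the control liver. Stat2 thus differed by less than the spread between probes, except against the local background column, where its ratio was -0.42.

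Stat4, the factor of IL-12 signalling in T and NK cells, was the dimmest probe against its background. Its deposited intensity was 13 in the CKO liver and 8 in the control liver. Its spots stood 11.1 blank SD above the blank mean on the CKO array and 8.15 on the control array, so the signal was low but measurable. The normalized ratio was 0.13, higher than 92.5% of 707 genes of similar level. With plain subtraction it was 0.69 and in the deposited values 0.70, the highest of the 9 in both and close to Jak2. Blank scatter alone gives the plain value an error of 0.22, which puts Stat4 and Jak2 within error of each other on that scale.

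Stat4 transcripts are known mainly from lymphocytes, whose markers were set beside it. Of 14 listed T cell markers 10 were measured here and 8 were above background on both arrays. On the normalized scale 6 of the 8 were higher in the CKO liver, beside 42.2% of all genes. Their median ratio was 0.30, with none past 2-fold, and against the local background column it was 0.05. With plain subtraction it was 0.95, and 4 were past 2-fold higher, beside 3.05% of all genes. The deposited intensities of the T cell markers summed to 232 in the CKO liver and 86 in the control liver. A gene's deposited intensity leaves out any of its probes without a deposited value, while its normalized ratio includes them. Cd8b1, a chain of the CD8 coreceptor, read 34 in the CKO and 3 in the control liver (normalized ratio 0.71). Cd8a read 56 in the CKO and 9 in the control liver (normalized ratio 0.49). Cd3g was above background on the CKO array alone, and Cd3e on neither. Of 11 NK cell markers 6 were above background on both arrays and 4 of these were higher. The median ratio of the 6 was 0.17 on the normalized scale, with none past 2-fold, and 0.01 against the local background column. With plain subtraction it was 1.12, and 3 were past 2-fold higher. Summed intensities of the 11 were 392 in the CKO and 298 in the control liver. Tbx21, which was lower, was the largest part of both sums, with 223 in the CKO and 242 in the control liver. Eomes was lower as well (-0.04). Gzma, a granzyme, read 36 in the CKO and 5 in the control liver (normalized ratio 0.69). The defining markers Ncr1 and Klrb1c were below background on both arrays. The part of lymphocytes in the Stat4 value was not tested.

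Stat5a and Stat5b, near copies that carry growth hormone and prolactin signals, were near equal and differed in sign. Stat5a had deposited intensities of 20 in the CKO liver and 23 in the control liver. Its normalized level was 6.27 in the CKO and 6.35 in the control liver, a ratio of -0.07, or -0.23 with plain subtraction. Stat5b, the main form in liver, had deposited intensities of 160 in the CKO liver and 154 in the control liver. Its normalized level was 7.95 in the CKO and 7.88 in the control liver, a ratio of 0.07. Both ratios were smaller than the spread between probes of 1 gene. The pair is alike in sequence, so how far each probe reads the other's transcript is uncertain. Stat5b, Stat5a and Stat3 are adjacent on chromosome 11 in RefSeq, and of these neighbours Stat3 alone had a ratio past that spread.

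Stat6, the factor of IL-4 and IL-13 signalling and of alternatively activated macrophages, was near equal as well. Its deposited intensity was 28 in the CKO liver and 25 in the control liver. The normalized level was 6.44 in the CKO and 6.38 in the control liver, a ratio of 0.06, or 0.15 with plain subtraction. Among the 6 STATs, 4 were higher and 2 lower, with a median ratio of 0.06.

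**Figure D2:**
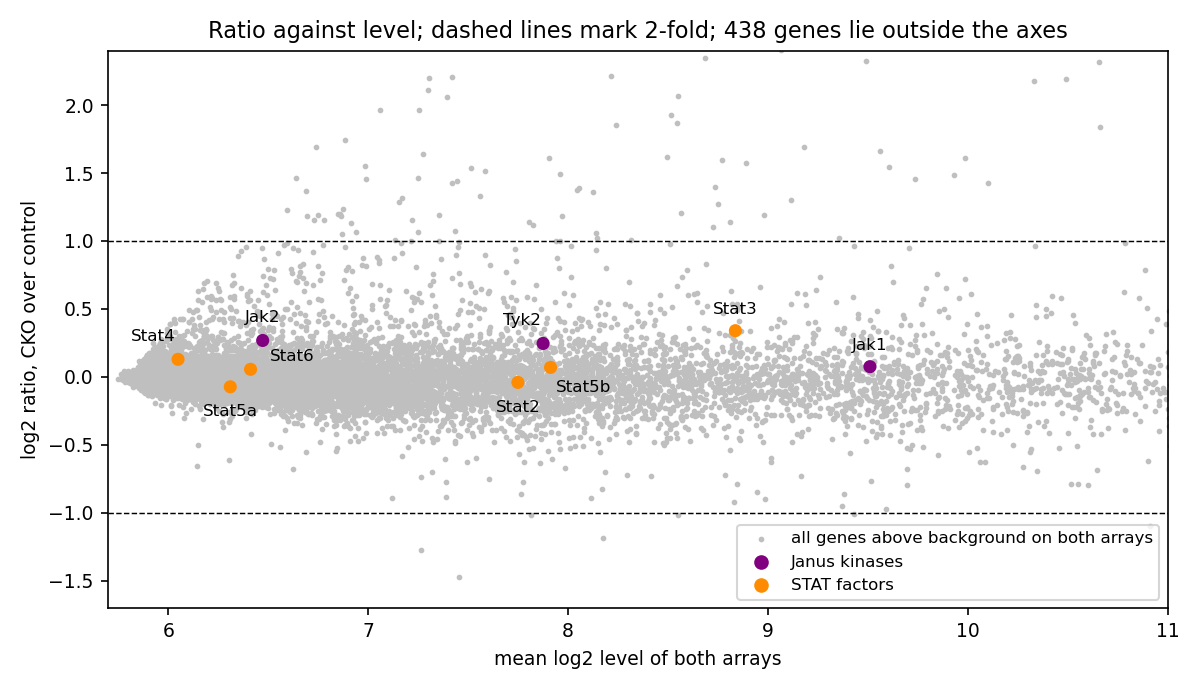
Log2 ratio of CKO over control (vertical) against the mean log2 level (horizontal) for genes above background on both arrays, grey, with the Janus kinases and STATs coloured and named and dashed lines at 2-fold. The 9 genes lie inside the grey cloud between -0.07 and 0.34; 438 genes lie outside the axes.

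Handling of background changed the sizes more than the scaling of the arrays did. With plain subtraction none of the 9 genes reached 2-fold, beside 3.05% of all genes on the higher side and 0.594% on the lower side. In the deposited values none did either, beside 3.81% higher and 1.08% lower. Median scaling and cyclic loess kept all 9 signs. The local background column of the scanner files turned Jak1, Tyk2 and Stat3 to lower and Stat5a to higher, leaving 5 of 9 genes higher. Around the 10 spots that column held between 43.3% and 95.7% of the spot's own signal on the CKO array and between 39.1% and 88.5% on the control array. The 10 probes lay in 7 of 24 printing blocks, whose median ratios ran between -0.03 and 0.01. Subtracting the block median, a step added after the data were seen, kept all 9 signs, with Stat3 at 0.35, Jak2 at 0.26 and Tyk2 at 0.25.

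**Figure D3:**
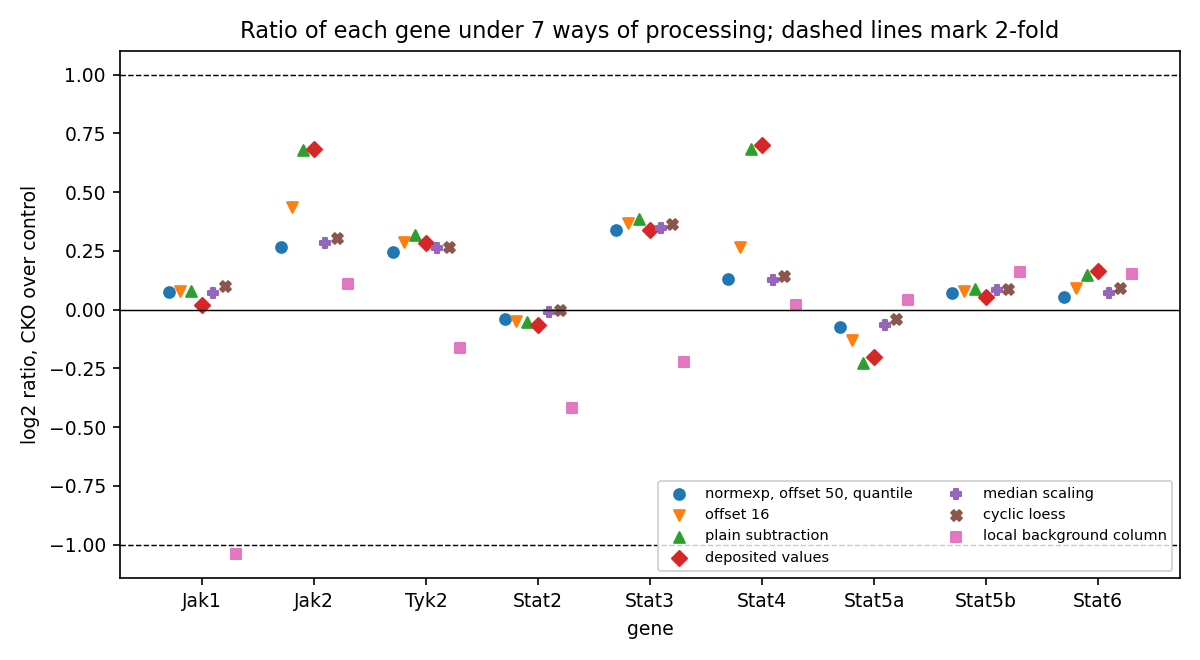
Log2 ratio of CKO over control for each of the 9 genes under 7 ways of processing, with dashed lines at 2-fold. Jak2, Stat4, Stat5b and Stat6 are above 0 in all 7. Stat3, Tyk2 and Jak1 are above 0 in 6, and the local background column places Jak1 at -1.04.

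Upstream of the kinases, most ligand transcripts were dim or below background, and the median ratio was near 0. Of 26 measured ligands 14 were above background on both arrays and 9 on neither, among the latter Il6 and Ifnb1. The 14 had a median ratio of -0.01, with 7 higher and 7 lower and none past 2-fold on the normalized scale. Ifng, the cytokine that signals through Jak1 and Jak2, read 11 in the CKO liver and 4 in the control liver as deposited intensity, a normalized ratio of 0.18 and 1.34 with plain subtraction. Il13, which signals to Stat6, read 127 in the CKO and 149 in the control liver (-0.17).

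Receptors that hold these kinases leaned to the higher side, with none past 2-fold on the normalized scale and 2, Il10ra and Csf3r, past it with plain subtraction. In that setting 3.05% of all genes were past 2-fold higher. Of 24 receptors above background on both arrays 16 were higher and 8 lower, with a median ratio of 0.06. Among all genes 42.2% were higher. Il10ra, a chain of the IL-10 receptor, which signals through Jak1, Tyk2 and Stat3, had deposited intensities of 81 in the CKO and 32 in the control liver, a ratio of 0.71. Csf3r, the granulocyte colony-stimulating factor receptor, read 22 in the CKO and 5 in the control liver (0.40). Both are expressed mainly by leukocytes. Among 9 adaptors and cofactors 3 were higher and 6 lower, with a median of -0.03. Irf9, the DNA-binding partner of Stat2, had deposited intensities of 100 in the CKO and 65 in the control liver, a ratio of 0.39, beside the near equal Stat2. Nmi, which binds STATs, read 282 in the CKO and 221 in the control liver (0.32).

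Inhibitors of the pathway spread to both sides. Of 18 above background on both arrays 11 were higher and 7 lower, with a median of 0.04 and none past 2-fold on the normalized scale. With plain subtraction 4 were past 2-fold higher, beside 3.05% of all genes. Usp18, which blocks the type I interferon receptor and is itself an interferon target, read 96 in the CKO and 34 in the control liver (0.83). Ptprc, the leukocyte phosphatase CD45, read 88 in the CKO and 31 in the control liver (0.81), and against the local background column its ratio was -0.04. Socs3, the feedback inhibitor that STAT3 induces, was chosen after its value was seen. It was lower, with 816 in the CKO and 1283 in the control liver (-0.56), while Stat3 itself was higher.

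Interferon targets of the STATs differed more than the STATs themselves did. The lists were drawn up with earlier results of these arrays known, so their direction is a description, and some genes stand in more than 1 list. Of 19 interferon-gamma targets above background on both arrays all 19 were higher and 15 were past 2-fold, beside 0.636% of all genes, with a median of 1.46. Tgtp2, an interferon-inducible GTPase, read 967 in the CKO and 40 in the control liver (3.61), and the chemokine Cxcl9 read 794 in the CKO and 62 in the control liver (3.0). Of 19 type I interferon targets, which need Stat2, 17 were higher, beside 42.2% of all genes. On the normalized scale the median was 0.43 and none was past 2-fold. With plain subtraction 5 were past 2-fold higher, beside 3.05% of all genes. Xaf1, a pro-apoptotic interferon target, read 250 in the CKO and 103 in the control liver, a ratio of 1.0 just under 2-fold. Against the local background column the median of the type I list was 0.04 and that of the interferon-gamma list 0.69.

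Liver genes induced by IL-6 through STAT3 were mostly higher. Of 26 above background on both arrays 21 were higher and 4 lower, with a median of 0.27, 5 past 2-fold higher and 1 past 2-fold lower. Among all genes 42.2% were higher, 0.636% were past 2-fold higher and 0.0778% past 2-fold lower. Saa3 read 488 in the CKO and 72 in the control liver (2.21), and Saa1 read 4707 in the CKO and 1047 in the control liver (2.20); both are serum amyloid acute phase proteins. The other 3 past 2-fold higher, named after their values were seen, were Saa2 (2.19), Lcn2 (1.93) and Orm2 (1.85). The gene past 2-fold lower, also named after its value was seen, was the iron hormone Hamp, with 5842 in the CKO and 12677 in the control liver (-1.02). Stat3, at 0.34, had a smaller absolute ratio than these 6 genes, which were picked for passing 2-fold. It was above the median of the 26 listed genes. Whether STAT3 accounts for the ratios of these genes was not tested. The median of the list was 0.45 with plain subtraction and 0.09 against the local background column.

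Targets of the remaining STATs had smaller medians. Of 12 growth hormone targets of STAT5 above background on both arrays, 7 were higher and 5 lower, with a median of 0.14, about the size of the spread between probes. Igfals, which binds circulating IGF1, read 542 in the CKO and 821 in the control liver (-0.50), and Cyp7b1, a hydroxylase of sterols, read 405 in the CKO and 285 in the control liver (0.49). Of 10 such targets of STAT6, 5 were higher and 5 lower, with a median of 0.02. Arg1, which is also a urea cycle enzyme of hepatocytes, read 5738 in the CKO and 8159 in the control liver (-0.39), and the macrophage lectin Mgl2 read 55 in the CKO and 75 in the control liver (-0.26). Of 10 such targets of STAT4, 5 were higher and 5 lower, with a median of 0.00. Gzmb, a granzyme of cytotoxic cells, read 62 in the CKO and 24 in the control liver (0.63). None of these 3 lists had a gene past 2-fold on the normalized scale. With plain subtraction 1 target of STAT5, 1 of STAT6 and 2 of STAT4 were past 2-fold higher, beside 3.05% of all genes.

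**Figure D4:**
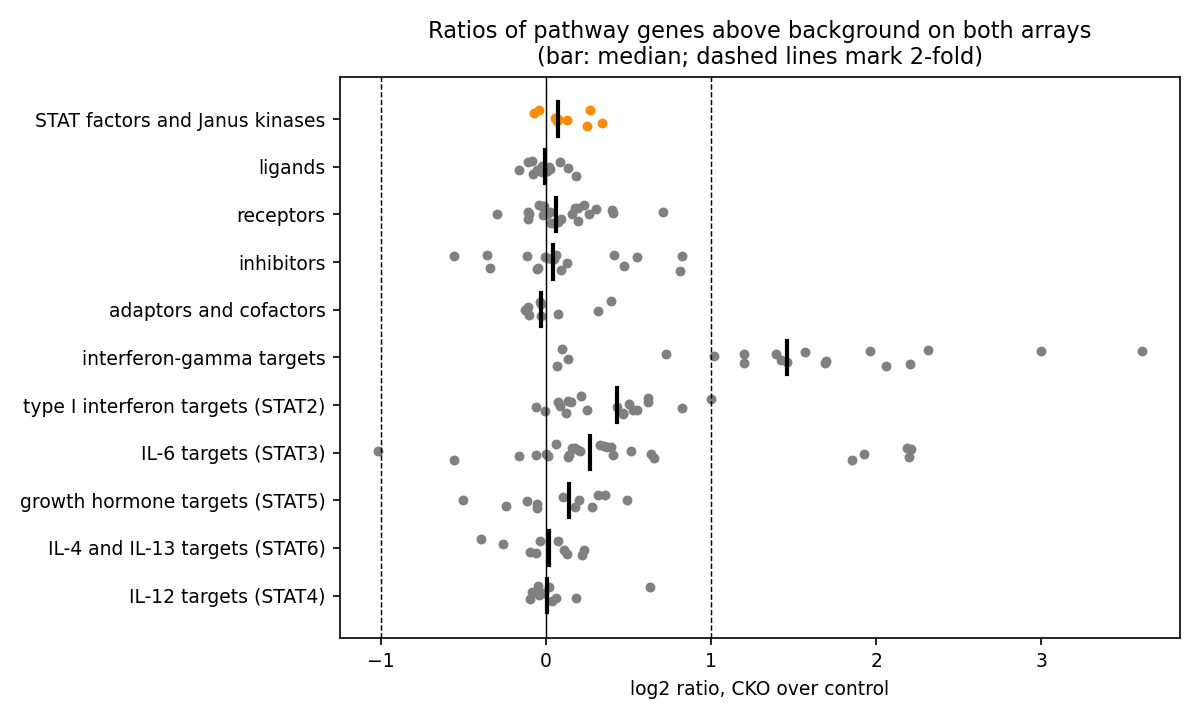
Log2 ratio of CKO over control for genes above background on both arrays in each list, with the list's median as a bar and dashed lines at 2-fold. The kinases and STATs cluster near 0 (median 0.08), while interferon-gamma targets spread up to 3.61 (median 1.46).

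Markers of other cell types are set beside these values, and their direction differed from 1 cell type to another. All 12 Kupffer cell and macrophage markers above background on both arrays were higher, 6 past 2-fold. Over all genes, 42.2% had a ratio above 0 and 0.636% were past 2-fold higher. The 13 measured markers of this list had summed deposited intensities of 6780 in the CKO and 2076 in the control liver. Marco, a scavenger receptor, had a ratio of 3.91 and C1qa, a complement subunit, 1.60. All 9 monocyte markers above background on both arrays were higher, 3 past 2-fold, and the 11 measured summed to 3492 in the CKO and 1084 in the control liver. Against the local background column the median of the Kupffer cell and macrophage list was 0.26, beside 0.92 on the normalized scale. For the monocyte list these medians were 0.26 and 0.48. Clec4f (-0.01), Vsig4 (-0.10) and Cd163 (-0.08) were lower against that column. Macrophages express Jak2, Tyk2, Stat3 and Stat6, and their part in the ratios of these genes was not tested. The 12 hepatocyte markers, all above background on both arrays, summed to 130927.5 in the CKO and 140288 in the control liver, with 6 higher and 6 lower. The 11 stellate cell and fibroblast markers, of the lineage in which the Cre acts, had 8 higher and 3 lower, with a median of 0.06 and ratios between -0.52 and 0.62, the highest being the collagens Col1a2 (0.62) and Col3a1 (0.57). The median of the 7 neutrophil markers was 0.04, with 6 higher and 1 lower. S100a9 was at 0.67 and S100a8 at 0.45, while Ly6g was at 0.004 and Retnlg at -0.11. With plain subtraction these medians were 0.32 for stellate cells and fibroblasts and 0.41 for neutrophils. Median ratios were 0.03 for 5 dendritic cell markers, among them Itgax (0.57) and Batf3 (0.29), and 0.03 for 6 B and plasma cell markers. They were -0.21 for 9 endothelial markers and -0.18 for 5 bile duct markers.

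Facts of the arrays bear on all values. Gene spots above background were 73.6% on the CKO array and 73.8% on the control array, and blank spots averaged 69.3 (SD 1.45) on the CKO array and 67.2 (SD 1.17) on the control array. Tnfaip3, the targeted gene, read 38 in the CKO and 41 in the control liver (-0.07). Which exons its probe covers is unknown here. A probe that misses the deleted exons checks nothing, so this value says nothing about the genotype label.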

How the data were processed

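Gene expression was measured in whole liver on 2 single-colour Cy5 arrays, 1 for each labelled genotype. Per the file headers, the deposited scanner files give a median intensity for every spot and for the area around it, from 3 gains joined by least-squares lines. The deposited value table is linear intensity too. The sources used here do not say how the authors made it; on these values it is the spot intensity less the blank spots' mean, times a factor per array (0.825 CKO, 0.859 control), to within 0.514 on the CKO array and 1.54 on the control array. It is not centred on genes, its median is 25 on both arrays, and its direction is not in question.

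Spots were background-corrected with normexp (limma 3.58.1, R 4.3.3) on the blank mean with an offset of 50, control spots were left out, and arrays were quantile-normalized on the log2 scale. Probes were named from the platform annotation and a gene's value is the mean of its probes. The deposited intensity printed for a gene is the mean of those of its probes that have a deposited value. In a sum, a gene without any adds nothing. Background means the blank mean plus 2 SD. No gene spot of the CKO array and 4 of the control array were flagged, and these were dropped. With 1 array per genotype no test was possible; genes were counted past 2-fold. The procedure was tested on simulated data. The number of arrays limits the precision.

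Members and lists were chosen with earlier results of these data known. Named genes were all 9 members, Tnfaip3, and from each of 21 lists up to 2 genes with the largest absolute ratios; some marker lists are given without them. Il6, Ifnb1, Cd3g, Cd3e, Ncr1, Klrb1c, Tbx21, Eomes, Socs3, Saa2, Lcn2, Orm2, Hamp, Clec4f, Vsig4, Cd163, Ly6g and Retnlg are named as well, picked outside the rule once their values had been seen. Alternatives were plain subtraction, the local background column, an offset of 16, median scaling, cyclic loess, the deposited values, no filter, genes at or above the median level, and the brightest probe.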

Additional observations from a re-analysis of the deposited data

How the results depend on the processing

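Counts of all genes past 2-fold depended on the handling of background: 90 higher and 11 lower became 431 and 84 with plain subtraction, 432 and 197 against the local background column, 181 and 19 with an offset of 16, and 557 and 158 in the deposited values. None of the 9 kinases and STATs was past 2-fold in any of the settings run except Jak1 against the local background column, which gave 1 gene past 2-fold lower. Values that moved by more than the spread between probes (0.13) were, against that column, Jak1 (-1.04), Jak2 (0.11), Tyk2 (-0.16), Stat2 (-0.42) and Stat3 (-0.22). With plain subtraction they were Jak2 (0.68), Stat4 (0.69) and Stat5a (-0.23), with an offset of 16 Jak2 (0.43) and Stat4 (0.27), and in the deposited values Jak2 (0.69) and Stat4 (0.70). A smaller or absent offset shrinks dim genes less by construction; for the local background column the cause was not tested. Stat4 lay below the median level of all genes and had no value under that filter. Of the 21 list medians, 13 moved by more than that spread with plain subtraction, 9 against the local background column, 9 in the deposited values, 6 with an offset of 16, 3 with the filter at the median level, and 1 each with no filter and with the brightest probe. Over all 21, the local background column turned the sign of 5, and signs also turned for 2 in the deposited values and 1 each with plain subtraction, median scaling, cyclic loess and the filter at the median level. No paired analysis was possible because each genotype had 1 array. Signal over background limits Stat4, Jak2, Stat5a and Stat6 most.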
